A study of Caenorhabditis elegans with 2 samples.

Results

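The 6 genes described here encode the cytosolic translation elongation factors of the nematode Caenorhabditis elegans: eef-1A.1, eef-1A.2, eef-1B.1, eef-1B.2, eef-1G and eef-2. They are 6 of 19985 protein-coding genes in the annotation, and they were chosen by their function after peaks at several of them were already known, so their peak signals and ranks are given as descriptions without a test. The study mapped where the protein ZK546.5 was recovered on chromatin by ChIP-seq, in which sonicated chromatin is pulled down with an antibody and its DNA sequenced, in whole L2 larvae of pooled sexes. The single group holds 2 biological replicates of strain OP231, which carries the mutation unc-119(ed3) on chromosome III and the insertion wgIs231. In this line ZK546.5 is fused at its C terminus to GFP and FLAG. The antibody is named by its target only, the control library is not analysed here, the labels do not say whether untagged ZK546.5 remains, and the signal of whole larvae cannot tell strong recovery in few cells from weak recovery in many. The authors deposited a thresholded list of 491 peaks, a pooled list of 30000 peaks and background regions, and each replicate's own list, of 19076 regions for replicate 1 and 30000 for replicate 2. Read depth is not given in the sources used here. ZK546.5 itself had no listed summit in its promoter window or gene body in the pooled list. A gene was taken to have a peak when a summit, the highest point of a peak, lay between 1000 bp upstream and 200 bp downstream of any of its annotated 5' ends.

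Elongation factors add amino acids to the growing protein. The GTPase eEF1A brings each aminoacyl-tRNA to the ribosome. The eEF1B complex, to which the products of the eef-1B genes and of eef-1G belong, reloads eEF1A with GTP. The GTPase eEF2 then moves the ribosome forward along the message. C. elegans has a pair of genes for eEF1A, and the promoter of one of them, eef-1A.1 (also called eft-3), is widely used to drive transgenes in nearly all tissues.

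The bases around the pooled summit are shown for the paralogues and for eef-1G, because their words recur in the results. They are on the strand of each gene and without its own annotated transcript, but other annotated genes were not cut out. Capitals mark 6-base words that were frequent at the other thresholded promoter peaks, and are named with their shares further on, each searched on both strands. The ce11 positions are chrIII:6972049-6972149 (minus strand), chrX:7823255-7823355 (plus), chrIII:7973387-7973427 (minus), chrIV:15037169-15037269 (plus) and chrV:10965629-10965718 (plus). All were taken 50 bp to each side of the summit, cut at the annotated 5' end in eef-1B.1 and eef-1G. The pooled summit of eef-1B.1 lies inside the transcript, so the bases shown for it end before the summit.
eef-1A.1: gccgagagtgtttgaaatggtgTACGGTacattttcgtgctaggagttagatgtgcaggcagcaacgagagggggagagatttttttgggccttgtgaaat
eef-1A.2: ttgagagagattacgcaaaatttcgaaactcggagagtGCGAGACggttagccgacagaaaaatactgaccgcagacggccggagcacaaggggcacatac
eef-1B.1: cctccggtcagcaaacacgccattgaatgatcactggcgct
eef-1B.2: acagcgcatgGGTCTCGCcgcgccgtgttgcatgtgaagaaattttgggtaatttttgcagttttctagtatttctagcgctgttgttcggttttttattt
eef-1G: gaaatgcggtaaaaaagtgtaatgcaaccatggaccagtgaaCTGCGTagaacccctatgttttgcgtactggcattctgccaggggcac
The words of eef-1B.1 lay just downstream of its 5' end, in this stretch of chrIII:7973332-7973354 (minus strand).
eef-1B.1, downstream: gactttgaGTCTCGCaacgattt

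Of the 6 genes, 5 had a thresholded peak: eef-2, eef-1A.1, eef-1G, eef-1B.1 and eef-1A.2. Over all protein-coding genes 2.89% had one in the same window. The pooled list, which includes background regions, held a summit for all 6 genes, against 40.8% of protein-coding genes, and the lists of replicate 1 and replicate 2 also did so for all 6, against 29.4% and 41.1%. The 5 peaks made up 1.02% of the thresholded list and 4.04% of its summed signal, of which eef-2 and eef-1A.1 alone held 3.76%. Their signals spanned 29.6-fold.

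eef-2, the only gene for eEF2 in this set, had the strongest of these peaks. It lies on chromosome I (9163531 to 9166952, plus strand, 3 annotated transcripts). Its peak spanned 9163274 to 9163768 with the summit 13 bp upstream of the nearest 5' end and 136 bp from the start codon. The signal was 2148 in the pooled list, 1342 in that of replicate 1 and 806 in that of replicate 2, which is rank 7, rank 6 and rank 7. Ranks are compared between lists because signals of different lists share no scale. The replicates placed the summit 3 bp apart, and both ranked it among their strongest regions.

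eef-1A.1, the first of the eEF1A genes, came next. The gene lies on chromosome III (6970026 to 6971712, minus strand). Its peak spanned 6971867 to 6972307, 387 bp upstream of the 5' end at the summit. Signals were 1534 pooled, 908 in replicate 1 and 629 in replicate 2, at rank 16, 15 and 17. The replicates gave the same summit base. The peaks of eef-1A.1 and eef-2 were 441 and 495 bp wide, and those of the other 3 thresholded members had the 356 bp that is the median of the list. In these narrower peaks, and in that of eef-1B.2, the listed summit is the middle of the peak. How precisely such a summit is placed was not tested. The replicate summits lay 2 bp apart at eef-1G, 6 bp at eef-1A.2, 15 bp at eef-1B.1 and 35 bp at eef-1B.2. For eef-1A.1 and eef-2 it was 0 and 3 bp.

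The partner subunits had weaker peaks. eef-1G, which encodes the gamma subunit of the eEF1B complex, lies on chromosome V (10965719 to 10967922, plus strand). Its summit was 40 bp upstream of the most upstream of its 5 annotated 5' ends. The pooled signal was 128, and the replicates gave 71.8 and 49.4, at rank 137 in the pooled list, 146 in replicate 1 and 145 in replicate 2. eef-1B.1, which encodes a nucleotide exchange subunit for eEF1A, lies on chromosome III (7972382 to 7973386, minus strand), with its summit 9 bp inside the transcript. Its signals were 74.6 pooled, 41.1 in replicate 1 and 31.1 in replicate 2, at rank 247, 286 and 264. For both genes the replicates differed little in rank. The replicate summits of eef-1B.1 lay 15 bp apart, on opposite sides of the 5' end: 9 bp inside in replicate 1 and 6 bp upstream in replicate 2.

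**Figure D1:**
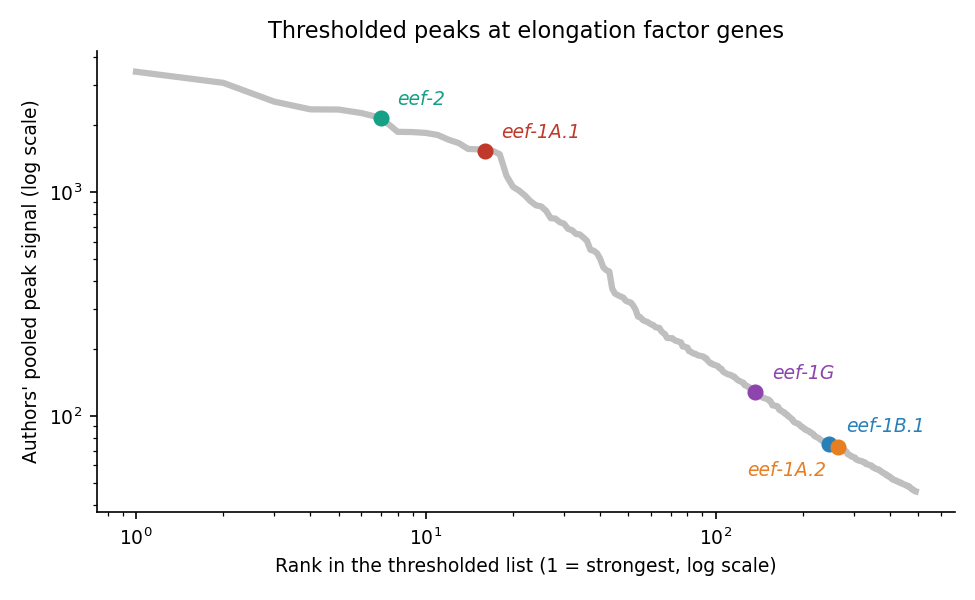
The authors' pooled signal (log scale) against rank (log scale) for the 491 thresholded peaks (grey line), with the 5 elongation factor peaks as coloured points. eef-2 (2148, rank 7) and eef-1A.1 (1534, rank 16) lie on the upper shoulder, and eef-1G (128), eef-1B.1 (74.6) and eef-1A.2 (72.6) on the lower slope.

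The eEF1A paralogues differed in their peaks although they encode the same protein. Their predicted proteins of 463 residues were identical (100%), and 94% of aligned coding bases were the same, but no run longer than 12 bases was shared by the 1000 bp upstream of each. eef-1A.2 lies on chromosome X (7823654 to 7825769, plus strand), with the summit 349 bp before its 5' end, close to the 387 bp of eef-1A.1. Its signals were 72.6 pooled, 58 in replicate 1 and 14.2 in replicate 2. The signal of eef-1A.1 was 21.1 times that of eef-1A.2 in the pooled list. It was 15.7 times in replicate 1 and 44.2 times in replicate 2, so the peak taken for eef-1A.1 was far higher in every list. That peak was nearer to the coding gene rfc-4, at 154 bp against 387 bp. With each peak given to its nearest coding 5' end only, eef-1A.1 had none and eef-1A.2 kept its own.

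The replicates disagreed on eef-1A.2. It ranked 178 in replicate 1 and 1820 in replicate 2, although their summits were 6 bp apart. Of the 491 thresholded peaks, 488 overlapped a region of replicate 2, and 28 of those ranked lower there than eef-1A.2. Of these 488, 87 fell outside the strongest 491 regions of replicate 2, and in replicate 1 it was 74 of 490. With the strongest 491 regions of replicate 2 alone, eef-1A.2 would not have counted as a peak and 4 of 6 members would have one.

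**Figure D2:**
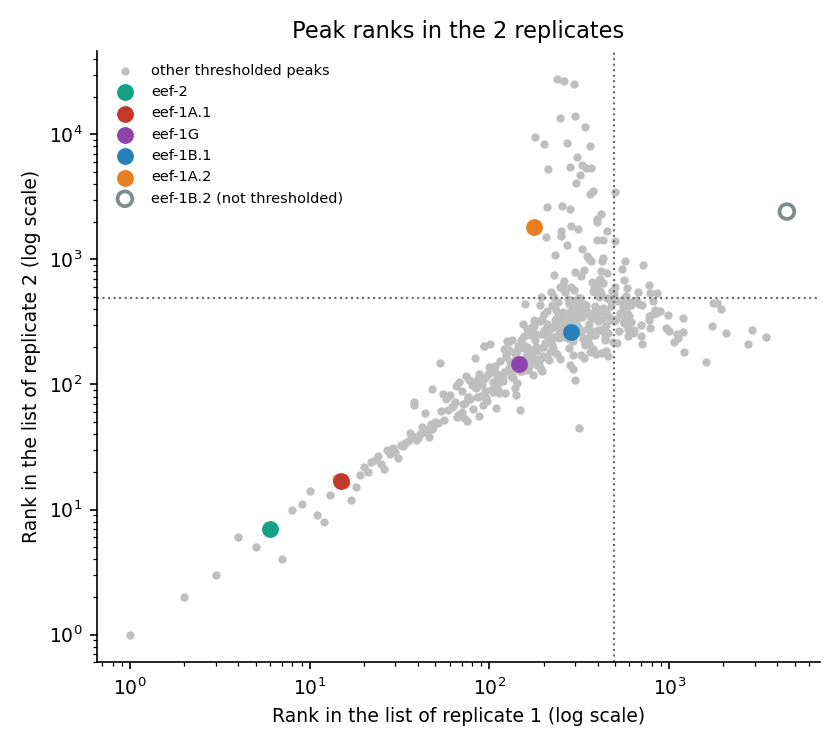
Rank of each thresholded peak in the list of replicate 1 (x, log scale) and of replicate 2 (y, log scale), taken from the best overlapping region, with members in colour and dotted lines at rank 491. eef-2, eef-1A.1, eef-1G and eef-1B.1 lie near the diagonal, eef-1A.2 (178 and 1820) lies above the line of replicate 2, and eef-1B.2 (open circle, 4521 and 2407) lies outside both lines.

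eef-1B.2, the paralogue of eef-1B.1, was the member without a thresholded peak. Over the 142 residues that aligned, 91.5% were identical between the predicted proteins of 213 and 263 residues. The gene lies on chromosome IV (15037331 to 15039551, plus strand). Its strongest pooled summit was 112 bp upstream, with a signal of 24.7 at rank 2745, and a second one 117 bp downstream had a signal of 12.6 at rank 27950. The replicates gave signals of 15.7 (rank 4521) and 13.3 (rank 2407) with summits 35 bp apart, the widest gap among the members. The signal of eef-1B.1 was 3.02 times that of eef-1B.2 in the pooled list, 2.62 times in replicate 1 and 2.34 times in replicate 2, a smaller gap than between the eEF1A genes in all 3 lists. The lowest thresholded peak had a signal of 45.9, so eef-1A.2 was the member nearest above that limit and eef-1B.2 the one below.

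Several of these genes share their upstream gap with a divergent neighbour. Of the 5 genes with a thresholded peak, all but eef-1A.2 have as nearest upstream coding neighbour a gene that reads the other way, across gaps of 179 to 540 bp. The same held for 73.1% of the 572 other coding genes with a thresholded peak, where a divergent pair can count both its genes for 1 peak, and for 45.4% of all coding genes with an upstream neighbour, so 4 of 5 is near the share of genes with a peak. The pooled summit at eef-1B.1 was not in the gap but 9 bp inside the transcript, while that of replicate 2 was in the gap, 6 bp upstream of the 5' end. The summit at eef-1A.1 was nearer to rfc-4, a replication factor C subunit, than to eef-1A.1: 154 bp against 387 bp, and it was 14 bp from the annotated microRNA gene cel-mir-5549. The summit at eef-2 was 252 bp from clsp-1, a claspin gene, that at eef-1G 140 bp from ctf-4, which encodes a replisome adaptor, and that at eef-1B.1 340 bp from aco-2, the mitochondrial aconitase, and 50 bp inside the non-coding gene F54H12.9. In these 3 cases the elongation factor gene had the nearest coding 5' end. With each peak given to its nearest coding 5' end only, 4 of the 6 members had one, and eef-1A.1 was lost to rfc-4. The summits at eef-1A.2 and eef-1B.2 lay in the window of no other gene, and their upstream coding neighbours, sek-1 and fcd-2, read in the same direction.

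Outside the windows, pooled summits were sought in each gene body and within 500 bp past the gene end. A single one was a thresholded peak, with a signal of 52.6 at rank 406 and its summit 34 bp past the annotated end of eef-2. It lies outside the window of eef-2 and was not assigned to a gene here. The gene bodies of eef-2 and eef-1A.1 also held pooled regions below the threshold, at 30.9 and 15.5 for eef-2 and at 26.5, 15 and 14.4 for eef-1A.1. The body of eef-1A.2 held a single one at 16.5, and those of eef-1B.1 and eef-1G held none. For eef-1B.2, a region of 26.8 lay 166 bp past the gene end, above the 24.7 of its promoter.

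**Figure D3:**
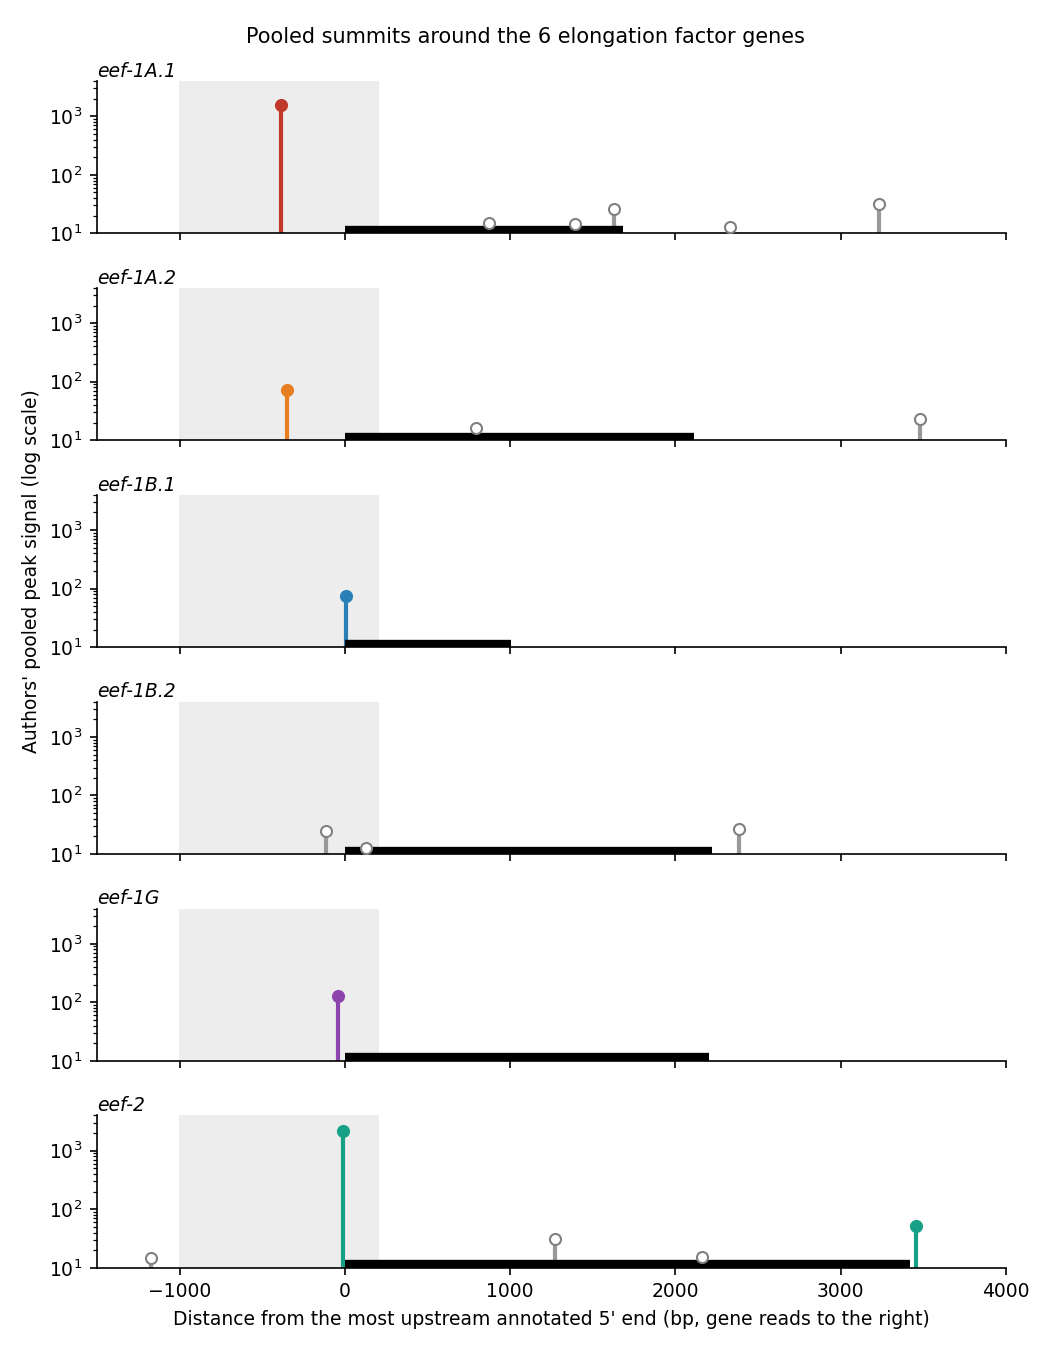
Pooled summits from 1500 bp upstream to 4000 bp downstream of the most upstream 5' end of each gene, as distance in bp (x) and the authors' pooled signal (y, log scale). Filled points are thresholded, open points are not, the black bar is the gene and grey shading marks 1000 bp upstream to 200 bp downstream of that 5' end. Each thresholded member has 1 thresholded peak in the shaded window, and another lies just past the 3' end of eef-2.

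Of the 10 peaks at the ranks next to these 5, 3 were at cytosolic ribosomal protein genes, against 47 of all 491 thresholded peaks (9.57%). That share is not matched for rank. Ribosomal protein genes also held ranks 3, 9 and 13, close to the ranks beside eef-1A.1. Without a rank-matched share, 3 of 10 is not read as a trait of the members. The peaks just above and below eef-1A.1 were at rps-19 with hsr-9 (1555) and at rps-23 with dpm-3 (1532), both rps genes encoding small-subunit ribosomal proteins. The peak below eef-1B.1 was at rpl-14, a large-subunit protein gene (74.6), and the one above was in the window of no coding gene. Those beside eef-2 were at sqd-1 (2257) and at egl-30 with C53H9.4 (1861). Those beside eef-1A.2 were at vps-25 (72.6) and at atad-3 with nrde-2 (72.6), and eef-1G stood between a peak with no coding gene (129) and tos-1 (128).

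The elongation factor genes were set beside 3 other families of the translation machinery, and other families were not compared. Taken by symbol, 50 of 81 ribosomal protein genes (61.7%) had a thresholded peak, at a median signal of 126, against 5 of 6 and 128 here. Initiation factor genes had 5 of 32 (15.6%, median 79.7, highest 202), and aminoacyl-tRNA synthetase genes 1 of 31 (3.23%, ears-2 at 76.4). The 202 was at ifet-1, which was included by its symbol only. It is the same peak, at rank 80, that was counted for rps-1, whose 5' end lay nearer to the summit. The next highest of the initiation factor genes was eif-3.C at 169. Over all protein-coding genes with a peak the median was 76.4. A signal above 1000 was found at 2 of the 5 elongation factor genes, at 5 of the 50 ribosomal protein genes and at none of the initiation factor or synthetase genes. Among all protein-coding genes with a peak, which include these families, 35 of 578 exceeded 1000. All 50 ribosomal protein summits lay upstream of the 5' end, at a median of 297 bp. The same held for 560 of the 578 protein-coding genes with a peak, at a median of 234 bp. The 5 here had a median of 40 bp upstream but were spread widely. eef-1A.1 (387 bp) and eef-1A.2 (349 bp) lay as far upstream as many ribosomal protein summits, and the other members lay close to the 5' end. With 6 members the difference between families was not tested.

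**Figure D4:**
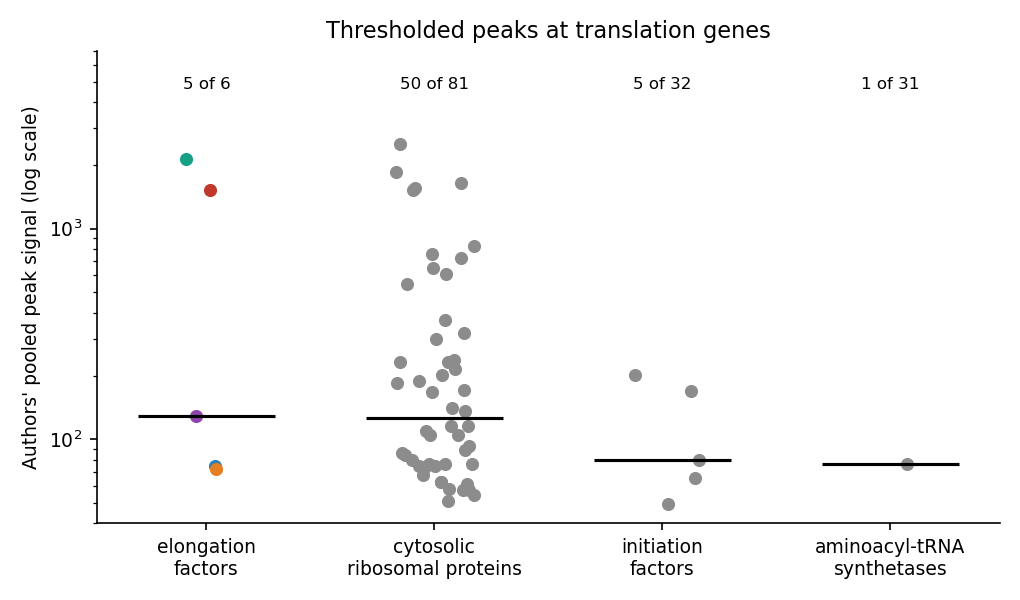
The authors' pooled signal (log scale) of thresholded peaks at elongation factor genes (coloured as in the other plots), cytosolic ribosomal protein genes, initiation factor genes and aminoacyl-tRNA synthetase genes, with the number of genes with a peak of all genes above and the median as a bar. Elongation factors (5 of 6, median 128) and ribosomal proteins (50 of 81, median 126) both reach above 1000, and the other families do not.

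Of 29 other annotated genes of the elongation pathway and related factors, in 5 lists, 3 had a thresholded peak (10.3%, against 2.89% of all protein-coding genes) and 22 a pooled summit (75.9%, against 40.8%). One of the 3 was iff-2, a gene for eIF5A, which helps the ribosome through difficult peptide bonds. Its signal was 533 at rank 39, 72 bp upstream, with rank 40 and 37 in the replicates, and the summit also lay in the windows of F54C9.12 and F54C9.14. Its paralogue iff-1 had only a weak pooled summit (17.3, rank 11772), which lay in the window of cdk-1 as well, and none in replicate 1. The enzymes dhps-1 and dohh-1, which modify eIF5A, had no pooled summit.

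Among the genes that modify eEF2, dph-6, a diphthamide synthesis gene, had a peak of 49.6 at rank 444, which lay in the window of no other gene, with rank 494 and 532 in the replicates, and the eEF2 kinase gene efk-1 had no pooled summit. This was 1 of 7 genes. The third was abcf-2 (1715, rank 12), with the summit 873 bp away and in the windows of ant-1.1 and T27E9.2 too. None of 5 annotated mitochondrial elongation and recycling factor genes had a thresholded peak, the strongest being tufm-2 at 22.4 (rank 4185). The release factor genes erfa-1 (21.4) and erfa-3 (27.6) were also below the threshold, the rescue factor gene pelo-1 had no pooled summit, and the 4 annotated genes of related GTPases had pooled summits of 13.1 to 31.3. A thresholded peak was thus found at 5 of the 6 cytosolic elongation factor genes and at 3 of the 29 others. Over all protein-coding genes the share was 2.89%, and the 6 genes were chosen after peaks at several of them were known.

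Windows of 101 bases around the summits were rich in G and C. They held 42.6% (eef-1B.2) to 51.5% (eef-1A.2), where the other 386 thresholded promoter summits had a median of 48.5% and 8716 sub-threshold promoter summits 33.7%. The lowest value among the members was that of the gene without a thresholded peak. The 6 words marked in capitals above were the 6-base words whose share at those 386 summits most exceeded that at the 8716, with the members left out of the choice. All 6 members held at least 1 of them, against 61.9% of the 386 and 14.9% of the 8716. The gap between these shares follows from how the words were chosen, and the sets were not matched for G and C. With 25 bp in place of 50 bp to each side, 3 members did (eef-1A.2, eef-1G and eef-2), against 44% and 7.94%.

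The strong and the weak members held different words. The word ACCGTA (18.9% of the 386) was found at eef-2, 3 bp from the summit, and at eef-1A.1, 28 bp from it, and at no other member. CGAGAC (22.3%) and the overlapping word GCGAGA (20.5% and 3.83% of the 8716) were found at eef-1A.2, eef-1B.1 and eef-1B.2. ACGCAG (21.2% and 3.25%) was found at eef-1G, once before the 5' end and once, on the other strand, just inside the transcript. GAGACC (20.7% and 3.22%), which also overlaps CGAGAC, was found at eef-1B.2 only, and the remaining word, GCGCAC (20.2% and 2.75%), at none. Over the other promoter summits of the thresholded list, ACCGTA was held by 55.6% of those at ranks 1 to 20, 51.9% at 21 to 50, 15.4% at 51 to 150 and 14.1% at 151 to 491, and by 3.18% of sub-threshold ones. The word CGAGAC had shares of 22.2%, 29.6%, 29.5% and 19.4%, and 3.21% below the threshold. The bands hold 18, 27, 78 and 263 summits, so the first of them rest on few.

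Of 15 short motifs searched on both strands of the same windows, 3 occurred at a member. GAGAGA was at eef-1A.1 and eef-1A.2 (15.8% of the 386 and 7.24% of the 8716). TTTGAA was at eef-1A.1, eef-1B.1 and eef-2 (20.7% and 31.5%), and CCAAT at eef-2 (15.8% and 19.5%). The other 12 were at none of the 6 windows. Of these, 5 were more frequent below the threshold: TATAAA (4.66% and 13.8%), the splice acceptor word TTTCAG (7.51% and 20.3%), the GATA word AGATAA (1.55% and 5.62%), a run of T bases, TTTTTTTT (4.4% and 17.3%), and ATCGAT (3.63% and 3.87%). The rest were more frequent at thresholded summits: the E-box CACGTG (3.37% and 1.73%), the GC box GGGCGG (7.25% and 2.71%), the word TGACG (22.3% and 9.53%), the longer TGACGTCA that holds it (0.777% and 0.447%), the word CTGCGTCT that overlaps ACGCAG read on the other strand (8.55% and 1.62%), the word TTCGCGC (3.63% and 0.952%) and the run CGCGCG (6.22% and 1.46%).

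The strongest members also shared a longer sequence. The windows of eef-1A.1 and eef-2 had a run of 16 bases in common, in opposite orientation, which lay 5 bp before to 10 bp after the summit of eef-1A.1 and 6 to 21 bp after that of eef-2. It was found at 4 places in the genome, and all 4 were within 50 bp of a thresholded summit. The other places were the peaks of rpl-11.2, a large-subunit ribosomal protein gene (1856, rank 9), and of pbs-1, a proteasome subunit gene that shares its peak with K08D12.3 (734, rank 29). These genes were picked after their values were seen. Bases around the run are shown for the 3 places outside the chromosome of eef-2, with the 18 bases common to them in capitals, at chrIII:6972068-6972125, chrX:2242970-2243027 and chrIV:1709919-1709976, all on the minus strand.
eef-1A.1: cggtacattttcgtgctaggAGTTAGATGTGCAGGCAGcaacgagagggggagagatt
rpl-11.2: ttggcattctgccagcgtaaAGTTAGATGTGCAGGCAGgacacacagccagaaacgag
pbs-1: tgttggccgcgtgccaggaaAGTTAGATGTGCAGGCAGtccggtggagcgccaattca

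Near matches of the 16-base run followed the rank of the peaks. With 1 mismatch allowed it was found at 13 places, of which 7 were at thresholded summits (ranks 7 to 37), and with 2 mismatches at 74 places, of which 14 were (ranks 1 to 180). Leaving out eef-2 and eef-1A.1, a match with up to 3 mismatches was held by 9 of 18 peaks at ranks 1 to 20, 6 of 30 at ranks 21 to 50, 1 of 100 at ranks 51 to 150 and 1 of 341 at ranks 151 to 491. Among the 8716 sub-threshold promoter summits 5 held one. The closest match had 8 mismatches at eef-1A.2 and at eef-1B.1, 6 at eef-1G and 5 at eef-1B.2, and the median was 7 in both sets of other promoter summits. The run was taken from the members' own windows, so its presence at eef-2 and eef-1A.1 is the rule and not a result.

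**Figure D5:**
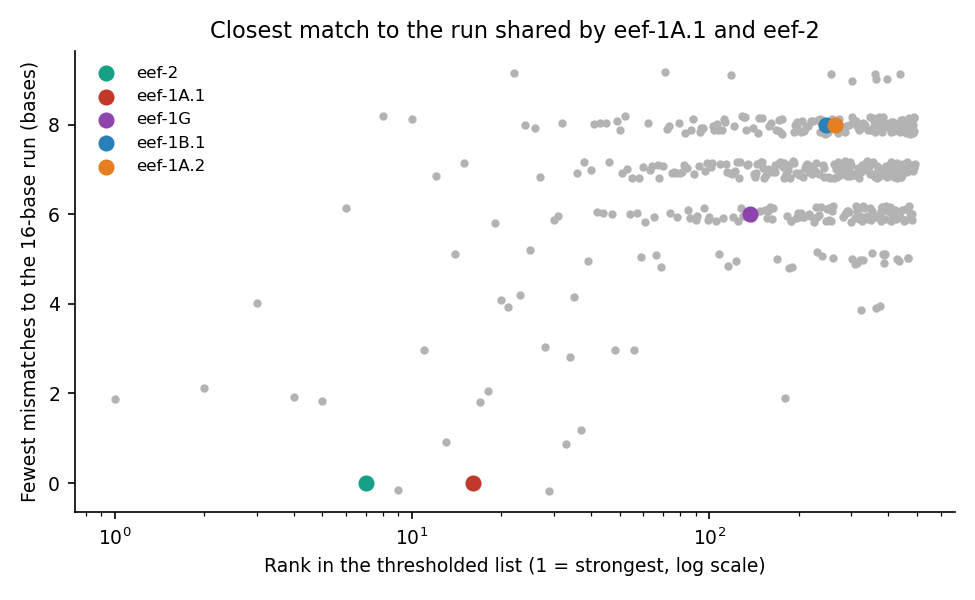
Fewest mismatches to the 16-base run (y, small vertical jitter on grey points) within 50 bp of each thresholded summit, against rank (x, log scale), with members in colour. eef-2 and eef-1A.1 are at 0 by construction, eef-1G is at 6, eef-1B.1 and eef-1A.2 are at 8, and peaks with up to 3 mismatches are mostly at ranks 1 to 50.

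The paralogues shared no such run with each other. The longest run common to both windows was 8 bases for eef-1A.1 with eef-1A.2 and 9 bases for eef-1B.1 with eef-1B.2. Between eef-1A.2 and eef-1G a run of 12 bases was shared, which occurs at 6 places in the genome and at none of the other 386 or 8716 summits. With any other thresholded promoter summit the longest common run was 18 bases for eef-1A.1, 17 for eef-2 and 14 or 15 for the remaining 4. That of eef-1G was with rpl-11.2. The median was 15 bases for the other 386 summits and 12 for the 8716 sub-threshold ones, so runs of this length were common in the thresholded list, and 18.1% of the 386 had a run of 18 or more.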

How the data were processed

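Per the records deposited with the samples, the authors called regions on the alignments of each replicate and of both together, always against a control, and took the thresholded list by IDR, a measure of replicate reproducibility. The sources used here do not give the aligner, caller, IDR threshold or depth. The deposited signal is the authors' peak value against the control on a scale of its own in each list. All 491 thresholded peaks were the strongest 491 of the pooled list.

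Coordinates are ce11, the sequence of WBcel235, and all regions fell inside its chromosomes. Genes came from Ensembl release 115 and bases from the RefSeq genome. The ce10 lists were not used here. Summits were set against every annotated 5' end with Python 3.11.15, and coding sequences were compared with Biopython 1.88. The window step was tested on simulated data. No significance test was run: there is 1 group, and the members, lists and motifs were chosen with earlier results of these data known. The genes named are the members, genes that share their peaks, genes at adjacent ranks, pathway genes and ZK546.5. The 6 words and the 16-base run were chosen after seeing the data. Because of trans-splicing, transcription may start upstream of an annotated 5' end.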

Additional observations from a re-analysis of the deposited data

How the results depend on the processing

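The number of elongation factor genes with a thresholded peak was 5 and fell to 3 in the stronger 246 peaks, where eef-1B.1 (rank 247) and eef-1A.2 (rank 265) drop out. It was 4 with the nearest coding 5' end only, without eef-1A.1, and 4 to 5 with a single replicate's strongest 491 regions, where eef-1A.2 is lost without replicate 1. It was 5 with the other 5 alternatives (2 other windows, the midpoint, overlap of 1 bp, the start codon). All 6 genes had a pooled summit under all 6 alternatives, and their strongest pooled signals did not move in 18 of 18 comparisons. Several of these alternatives could lose no gene, here and for the thresholded count. A wider window or an overlap of 1 bp cannot drop a summit. The smaller window, from 500 bp upstream, still held every strongest summit, the furthest being 387 bp away. In the narrower peaks the midpoint is the listed summit. The number with 1 of the 6 words, with alternatives chosen after seeing the data, was 6, but 3 with 25 bp to each side, 6 with 100 bp, and 5 to 6 with the summits of a single replicate, where eef-1B.1 is lost without replicate 1. At 100 bp to each side 72.3% of the 386 other thresholded promoter summits and 26.3% of the 8716 sub-threshold ones held a word as well. No paired analysis was possible because the samples form a single group. Without read depth, no counting error can be given for a signal.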
